A study of Mus musculus with 24 samples.

Results

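Embryos lacking a 36 kb element called Hoxa2PTE were compared between 2 facial tissues, to see which tissue differences in promoter contacts were present without the element. The samples were chosen by their titles: 2 libraries of the second pharyngeal arch (PA2) and 2 of the mandibular process (Md), all from mouse embryos at E11.5 with the 36 kb deletion (Hoxa2PTE-36kb-del), making 4 of the 24 libraries and 2 of the 12 groups of the series. The labels give the tissues only as Md and PA2, which embryologists commonly use for these structures, and do not say what PTE stands for. Values are set beside those of Md and PA2 of wild-type (WT) embryos, Md and PA2 of Ezh2cKO embryos, in which Ezh2 is conditionally deleted, and PA2 of embryos with a 42 kb deletion of the same name (Hoxa2PTE-42kb-del), 2 libraries each and all at E11.5. The titles call the 36 kb, WT and Ezh2cKO libraries biological replicates and number the 42 kb libraries without that word. Neural crest cells were sorted from Wnt1::Cre;ROSARFP and Ezh2cKO embryos. For the deletion embryos, no sorting, zygosity or pooling is given in the sources used here, nor is the driver that deleted Ezh2. The p-values therefore measure the spread between libraries. In the limma fit that spread was pooled over all 24 libraries of the series. Those also hold WT progenitors at E8.5, and WT and Ezh2cKO libraries labelled FNP and Mx at E11.5.

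The assay was promoter capture Hi-C. Cross-linked chromatin is cut with the enzyme HindIII and religated, and ligation products that contain a promoter fragment, the bait, are enriched with probes. Each library is a list of pairs of fragments called as interacting, and a cis call is a called pair on 1 chromosome. Contacts are not expression, so lists of cell type markers could not check which cells a library held. The Md libraries listed 150324 and 154232 called pairs and the PA2 libraries 142284 and 154013, against 169967 to 173381 in the 4 WT libraries of these tissues. Read depth was unknown, so a pair missing from a list was not called and cannot be taken as absent.

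Hox genes encode homeodomain transcription factors that give cells along the body axis their regional identity, and they lie in 4 clusters, Hoxa to Hoxd. Hoxa2 is the selector gene of the second arch: crest cells of that arch express it, crest cells of the mandibular process do not, and loss of Hoxa2 turns second arch skeleton towards a first arch form. Its paralogue Hoxb2 is also expressed in second arch crest. Silent Hox genes carry Polycomb marks and contact one another in the nucleus, whereas active ones can contact distant enhancers.

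The promoters of 3 genes on which the results turn are shown because they differ widely in CG content, a feature of promoters bound by Polycomb. Each is the 250 bases before a start site, 5′ to 3′ on the gene's strand, from RefSeq for GRCm38.p6, with CG dinucleotides in capitals. They are Hoxa2 (chr6:52164832-52165081, minus strand), Eya4 (chr10:23349944-23350193, minus strand, the first of its start sites in the bait) and Tssk4 (chr14:55649934-55650183, plus strand). Hoxb2 had no entry in the table.
Hoxa2: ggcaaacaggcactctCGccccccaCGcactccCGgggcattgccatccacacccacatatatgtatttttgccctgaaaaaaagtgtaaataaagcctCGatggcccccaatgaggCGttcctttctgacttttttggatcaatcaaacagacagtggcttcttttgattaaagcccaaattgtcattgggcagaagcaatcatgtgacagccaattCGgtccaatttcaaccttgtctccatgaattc
Eya4: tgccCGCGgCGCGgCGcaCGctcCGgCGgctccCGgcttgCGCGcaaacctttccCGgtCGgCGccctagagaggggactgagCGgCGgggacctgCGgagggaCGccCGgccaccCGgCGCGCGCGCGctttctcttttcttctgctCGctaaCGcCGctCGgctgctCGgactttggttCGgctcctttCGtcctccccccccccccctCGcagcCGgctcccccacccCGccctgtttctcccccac
Tssk4: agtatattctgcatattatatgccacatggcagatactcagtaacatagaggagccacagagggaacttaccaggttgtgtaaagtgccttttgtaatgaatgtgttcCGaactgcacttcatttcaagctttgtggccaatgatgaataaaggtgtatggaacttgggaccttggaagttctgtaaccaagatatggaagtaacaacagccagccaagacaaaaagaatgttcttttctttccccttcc
The motif counted was CG, which reads the same on both strands. The Hoxa2 promoter held 6 CG, the median over 32851 start sites, of which 92.1% held at least 1. The Eya4 promoter shown held 35, more than 97.0% of start sites, and the Tssk4 promoter 1, more than 7.87%. The 250 bases before another Eya4 start site in the bait held 25, more than 89.3%.

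The deletion was first looked for in the calls. On chromosome 6, a stretch of 39.0 kb in 8 HindIII fragments (chr6:51173834-51212855, from −991.1 to −952.0 kb of the Hoxa2 bait, negative distances being towards lower coordinates) was called as a partner in all WT Md and PA2 libraries. It received 99 and 94 calls from all baits in WT Md and 102 and 98 in WT PA2. In the 4 libraries of the 36 kb deletion it received 0 calls, in the 42 kb deletion 1 and 0, and in Ezh2cKO between 56 and 62. The stretch was found as the longest run of fragments called in all 4 of those WT libraries and in none of the 4 deletion libraries, so its 0 calls are a description and no independent check of the labels. It is measured in whole fragments and is longer than the labelled 36 kb. The labels give no coordinates, so the exact bounds of the deletion are unknown. By the same rule a second, shorter run of 3 fragments near the end of the chromosome had 0 calls in these 4 libraries and 5 to 8 in each WT library.

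The Hoxa2 bait (chr6:52162863-52166906, 4.04 kb, holding the Hoxa2 start site) had more cis calls in PA2 than in Md in WT, and this was not seen in the deletion. WT Md had 25 and 23 cis calls and WT PA2 64 and 64, whereas with the 36 kb deletion Md had 32 and 26 and PA2 23 and 17. The groups did not overlap in either genotype, with PA2 the higher in WT and the lower in the deletion. Per 10000 cis calls of the library, the deletion values were 1.97 ± 0.33 in Md and 1.41 ± 0.38 in PA2 (SD, n = 2 each). In the limma fit over all baits the PA2 minus Md difference was −0.49 on the log2 scale (SE 0.34, adjusted p = 0.805) in the deletion and 1.41 (SE 0.34, adjusted p = 0.223) in WT, so neither passed. The difference between the genotypes was −1.90 (SE 0.48, unadjusted p = 0.000696, adjusted p = 0.503). With precision weights from voom, a setting chosen after seeing the data, the WT difference passed at adjusted p = 0.0436, and the other limma results for Hoxa2 did not (adjusted p = 0.824 in the deletion and 0.183 for the difference between genotypes). With the 42 kb deletion PA2 had 11 and 10 calls.

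The partners of the Hoxa2 bait also differed between the 2 tissues of the deletion. The distance windows used here were drawn after the values were seen, so their counts are a description with no test. On the far side, from −1500 to −950 kb, Hoxa2 had 0 and 0 calls in Md and 11 and 9 in PA2 of the deletion. WT Md had 9 and 7 calls there and WT PA2 62 and 63, so PA2 was above Md in both genotypes. The stretch without calls lies inside this window. Beyond it alone, from −1500 kb to the start of the gap, the calls were 0 and 0 in Md and 11 and 9 in PA2 of the deletion, against 2 and 2 in WT Md and 57 and 57 in WT PA2. The difference between the tissues thus remained in direction on fragments beyond the stretch without calls. PA2 of the deletion had 10.0 ± 1.41 calls there (n = 2), where WT PA2 averaged 57. Of the 15 far fragments called in either PA2 library of the deletion, 5 were called in both, all 15 were also called in WT PA2, and 2 in WT Md. PA2 with the 42 kb deletion had 0 and 2 calls from −1500 to −950 kb, and Md and PA2 of Ezh2cKO had 8 to 13.

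**Figure D1:**
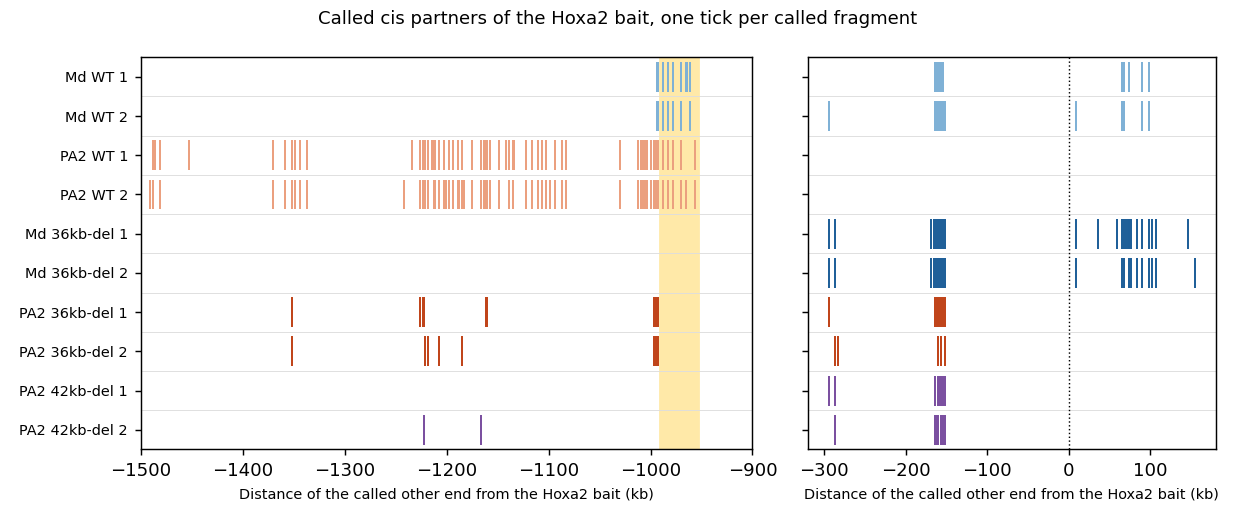
Called cis partners of the Hoxa2 bait in 10 libraries, 1 tick per called fragment, against distance from the bait in kb in 2 panels that leave out other distances; the shaded band is the stretch without calls in the 36 kb deletion. Ticks left of the band appear in both PA2 libraries of the deletion and in neither Md library, and ticks at 50 to 120 kb appear in both Md libraries and in neither PA2 library.

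Fragments directly beside the gap were still called in the deletion. In the 10 kb on its far edge, 5 fragments received 9 and 7 calls from all baits in Md and 15 and 17 in PA2, against 25 and 29 in WT Md and 44 and 43 in WT PA2. Hoxa2 made 0 and 0 of these calls in Md and 5 and 4 in PA2 of the deletion. The bait shared by Hoxa3 and Hoxa7, which encode other anterior and trunk Hox factors, made 4 and 4 in Md and 3 and 3 in PA2. The bait of Cbx3 and Hnrnpa2b1, a heterochromatin protein and an RNA-binding protein that most cells express, made 2 and 2 in Md and 1 and 2 in PA2, and was listed at 0 there in the 4 WT libraries. So in the deletion Hoxa2 called this edge in PA2 alone, while the Hoxa3 and Hoxa7 bait called it in both tissues. In the 42 kb deletion no bait called these fragments, and the labels do not say whether that deletion removed them.

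Towards the cluster itself the order of the tissues was the opposite. From 50 to 120 kb, where the posterior genes Hoxa10, Hoxa11 and Hoxa13 lie, Hoxa2 had 14 and 9 calls in Md and 0 and 0 in PA2 of the deletion. WT had the same order with lower counts in Md, 5 and 4 against 0 and 0, and the 42 kb deletion had 0 and 0 in PA2. Both Md libraries of the deletion called fragments of Hoxa10, Hoxa11 and Hoxa13, which pattern limbs and trunk and are silent in facial crest. At the neighbouring gene Skap2, an adaptor of kinase signalling in blood cells, the window from −300 to −140 kb held 13 and 13 calls in Md and 8 and 5 in PA2 of the deletion. There WT PA2 had 0 and 0 and WT Md 6 and 8, so calls on the Skap2 side, not seen in WT PA2, were present in PA2 of both deletions (8 and 7 with 42 kb). They were also present in Ezh2cKO, with 4 and 2 in Md and 8 and 12 in PA2, where the order of the tissues was the opposite. Of the 10 fragments called there in either PA2 library of the deletion, 7 were also called in WT Md.

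By the distance classes planned for this bait, the tissues of the deletion differed at both ends. At 1 Mb or more on the lower side, Md had 1 and 0 calls and PA2 6 and 5, against 1 and 1 and 51 and 51 in WT. Within 100 kb on the higher side, Md had 14 and 8 and PA2 0 and 0. From 100 kb to 1 Mb on the lower side the groups overlapped, with 13 and 13 in Md and 16 and 11 in PA2. From 100 kb to 1 Mb on the higher side the counts were 3 and 3 in Md and 1 and 1 in PA2, and at 1 Mb or more on that side 1 and 2 in Md and 0 and 0 in PA2. Within 100 kb on the lower side no library of the deletion had a call.

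Hoxb2, the paralogue of Hoxa2, was the bait at which the tissue difference passed the test in both genotypes. The first Hoxb2 bait (chr11:96348585-96354229) had 30 and 24 cis calls in Md and 3 and 4 in PA2 of the 36 kb deletion. In WT the counts were 26 and 26 in Md and 5 and 8 in PA2, and PA2 of the 42 kb deletion had 3 and 5. The groups did not overlap in either genotype, and PA2 was low in all 6 of its WT and deletion libraries. Per 10000 cis calls the deletion values were 1.84 ± 0.33 in Md and 0.244 ± 0.035 in PA2 (SD, n = 2 each). The limma difference was −2.74 (SE 0.33, adjusted p = 0.000137) in the deletion and −1.94 (SE 0.33, adjusted p = 0.0364) in WT. The change of the difference between genotypes was −0.80 (SE 0.46, adjusted p = 0.944). The call in the deletion was lost with precision weights (adjusted p = 0.113) and with pairs scored at 7 or more (adjusted p = 0.0961). The WT call was lost without Md replicate 1 (adjusted p = 0.168), Md replicate 2 (0.107) or PA2 replicate 1 (0.307), with precision weights (0.146) and with scores of 7 or more (0.385). In Ezh2cKO the tissues overlapped, with 16 and 13 calls in Md and 19 and 14 in PA2.

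The Hoxb2 calls that differed lay in its own cluster and just beyond it. From −200 to −30 kb, a window that reaches from beyond Hoxb13 to Hoxb4, Hoxb2 had 24 and 17 calls in Md and 0 and 0 in PA2 of the deletion, and 16 and 15 against 0 and 1 in WT. In each Md library of the deletion, 7 of these calls were to fragments beyond the Hoxb13 bait, outside the cluster, and 17 and 10 lay from that bait on. Both Md libraries of the deletion called fragments holding Hoxb13, Hoxb9, Hoxb8, Hoxb7, Hoxb5 and Hoxb4. On the other side, from 150 to 220 kb, the tissues overlapped, with 3 and 6 calls in Md and 3 and 4 in PA2. These windows were also drawn after seeing the values. Between chromosomes, Hoxb2 had 5 and 6 calls in Md, of which 3 and 2 were to other Hox baits, and 0 and 0 in PA2 of the deletion, against 10 and 15 and 4 and 4 in WT. A second Hoxb2 bait (chr11:96354465-96360419) had 14 and 15 cis calls in Md and 7 and 7 in PA2. The direction was the same, and its difference of −0.95 (SE 0.49) did not pass limma (adjusted p = 0.662).

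**Figure D2:**
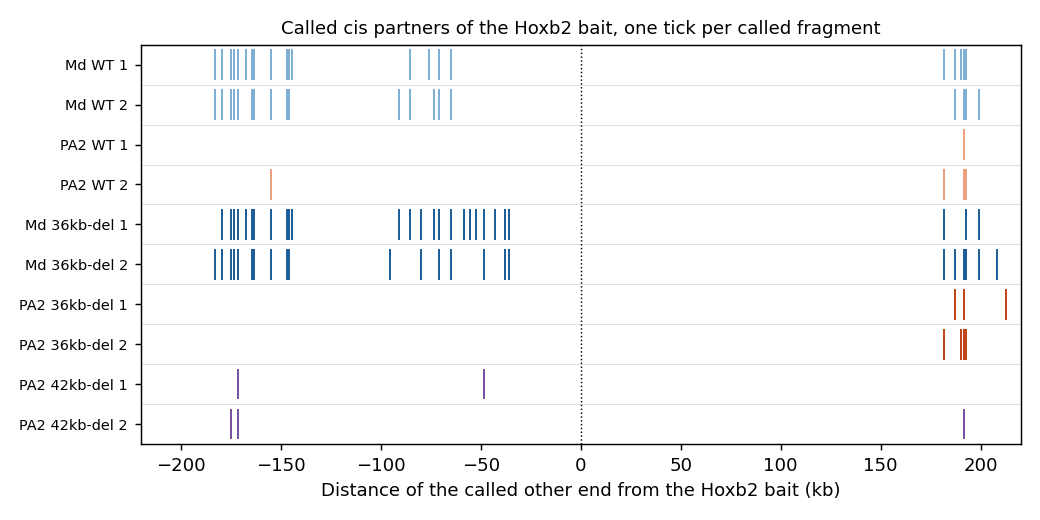
Called cis partners of the first Hoxb2 bait within 220 kb in 10 libraries, 1 tick per called fragment, against distance from the bait in kb. The Md libraries of WT and of the 36 kb deletion have 15 to 24 ticks from −200 to −30 kb and the PA2 libraries of these genotypes 0 or 1, while ticks from 150 to 220 kb occur in both tissues.

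The 4 Hox clusters as wholes were compared by summed cis calls per 10000 cis calls of a library. With 2 libraries against 2, an exact permutation test cannot give a p below 0.333, so no cluster could pass. Hoxa baits had 16.7 and 14.6 in Md and 16.0 and 12.4 in PA2 of the deletion, Hoxb baits 20.5 and 18.9 and 18.4 and 19.3, and Hoxd baits 18.3 and 15.5 and 16.6 and 14.5. These 3 clusters overlapped between the tissues (two-sided exact permutation p = 0.667 each). Hoxc baits had 34.6 and 38.2 in Md and 38.3 and 48.5 in PA2, with PA2 replicate 2 standing apart and the other PA2 library close to the higher Md value (exact permutation p = 0.333). In WT the Hoxa sums were 12.9 and 13.3 in Md and 17.4 and 17.6 in PA2, and all 4 Hoxc sums lay between 48.2 and 51.4.

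Calls with both ends inside a cluster, per 10000 cis calls, did not overlap between the tissues of the deletion at Hoxa and Hoxb, where Md was higher, and at Hoxc, where PA2 was higher. Each had the smallest p the design allows (0.333, exact permutation test, two-sided). Inside Hoxa there were 35 and 25 calls in Md and 15 and 13 in PA2, or 2.04 ± 0.52 and 0.985 ± 0.156 per 10000 (SD, n = 2 each). WT libraries had 10 and 10 in Md and 4 and 4 in PA2, the 42 kb deletion 24 and 18 in PA2, and Ezh2cKO libraries 0 or 1. Inside Hoxb there were 55 and 36 calls in Md and 29 and 23 in PA2, against 49 and 44 and 43 and 46 in WT. The Hoxb difference of −1.27 per 10000 was −0.577 without Md replicate 1 and −1.96 without Md replicate 2, and with scores of 7 or more it was −0.687 and the groups overlapped (exact permutation p = 0.667). The Hoxa difference of −1.06 was −0.688 without Md replicate 1. In both clusters the Md libraries of the deletion lay above its PA2 libraries, and at Hoxa also in WT. Inside Hoxc the values were 8.55 and 8.90 per 10000 in Md and 9.27 and 10.0 in PA2, while the unscaled counts, 124 and 133 and 127 and 149, overlapped, and the scaled difference of 0.924 was 0.548 without PA2 replicate 2. Inside Hoxd no library of the deletion had a call. Pairs joining 2 different Hox clusters numbered 9 and 14 in Md and 10 and 15 in PA2 of the deletion, 20 to 31 in the 4 WT libraries and 0 in Ezh2cKO.

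Among the 10 Hoxa baits, 6 had a lower and 4 a higher fitted value in PA2 of the deletion (median −0.26, from −0.91 to 0.32, against a median of 0.003 over all 10344 tested baits), and none passed limma, as 0.0580% of all tested baits did. Hoxa10 had 18 and 14 calls in Md and 9 and 7 in PA2 (−0.91, adjusted p = 0.467). Its p was below 0.05 before adjustment, as that of 7.91% of all tested baits was. Hoxa13 had 31 and 25 calls in Md and 19 and 21 in PA2. Hoxa5, a gene of the neck and lung level, had 16 and 21 in Md and 19 and 26 in PA2, and Hoxa6 20 and 22 and 27 and 20. Hoxa4 had 25 and 21 in Md and 24 and 15 in PA2, the bait of Hoxa3 and Hoxa7 30 and 27 and 29 and 30, and Hoxa11 28 and 23 and 37 and 23. Of the Hoxa baits named here, Hoxa2, Hoxa10 and Hoxa13 did not overlap between the tissues, and the others did. With 2 libraries against 2, an exact permutation test of a bait without overlap cannot go below p = 0.333. The lack of overlap therefore singles out none of these baits.

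Among 12 Hoxb baits, 5 were lower and 7 higher (median 0.03), and Hoxb2 alone passed. Hoxb8, with 78 and 76 calls in Md and 70 and 65 in PA2, had the most calls among them, and its difference of −0.14 did not pass (adjusted p = 0.873). Of 9 Hoxc baits, 8 were higher in PA2 (median 0.32), from −0.10 at Hoxc6 to 0.46 at Hoxc8, whose counts were 53 and 62 in Md and 53 and 110 in PA2. Here 1 library made the difference, as 1 PA2 value equalled an Md value. Hoxc9, with 67 and 74 calls in Md and 79 and 92 in PA2, had a p of 0.0335 before and 0.576 after adjustment. Of 10 Hoxd baits, 8 were lower (median −0.08, from −0.48 to 0.07), none with an unadjusted p below 0.05.

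Over all baits, few tissue differences passed in the deletion. Of 10344 baits tested with limma, 6 (0.0580%) differed between PA2 and Md at an adjusted p below 0.05: 3 had more cis calls in PA2 (0.0290%) and 3 fewer (0.0290%). At an unadjusted p below 0.05 there were 818 (7.91%). In the simulation of this comparison, which changed 200 of 10387 baits, the fit recovered 67% of 4-fold and 7% of 2-fold changes, and 16 of its 90 calls (17.8%) were false. With precision weights from voom it recovered 64% and 15% with 1 false call in 80 (1.25%), and in the real data that setting called 1 bait (0.00967%), Tssk4. The count of 6 rose to 10 without Md replicate 1, 44 without Md replicate 2, 51 without PA2 replicate 1 and 30 without PA2 replicate 2, and 4, 6, 6 and 4 of the 6 baits were among those called. The directions shifted with the library left out: 9 were higher and 1 lower in PA2 without Md replicate 1, 40 and 4 without Md replicate 2, 23 and 28 without PA2 replicate 1, and 3 and 27 without PA2 replicate 2. Leaving out a library leaves 1 library in its group, which the fit assumes to vary like the other groups.

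The first of the 3 baits with more calls in PA2 was that of Tssk4 (chr14:55650061-55655950), a testis-specific serine kinase. It had 0 and 0 cis calls in Md and 11 and 10 in PA2 of the deletion. WT had 8 and 7 in Md and 9 and 7 in PA2, the 42 kb deletion 8 and 11, and Ezh2cKO 11 and 8 and 7 and 5, so the Md libraries of the deletion stood apart from every other Md and PA2 library given here. Against a floor of 3 calls per library, PA2 was at least 3.62-fold higher. The fitted log2 difference of 4.50 (SE 0.41, adjusted p = 3e-06 in limma, 0.00035 with precision weights) depends on the added count and is no bound. It was the bait that kept its call under each setting that tested it, with adjusted p up to 0.00767. Of the baits tested, it alone had no call in both libraries of 1 tissue and at least 5 in each of the other in the deletion, and no bait did in WT or Ezh2cKO. The 35 other baits within 500 kb had 165 and 217 calls in Md and 164 and 223 in PA2.

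The bait shared by Brd2, a bromodomain reader of acetylated histones, and H2-DMa, a chaperone of MHC class II peptide loading (chr17:34117600-34125398), had 0 and 0 calls in Md and 4 and 3 in PA2 of the deletion. The other genotypes were far higher, with 31 and 31 in WT Md, 27 and 31 in WT PA2, 27 to 31 in Ezh2cKO, and 16 and 5 in the 42 kb deletion. Both tissues of the deletion were thus low, and no fold is given because PA2 was near the floor. The fitted difference of 3.03 (SE 0.35) passed limma (adjusted p = 9.6e-05), and it did not with precision weights (adjusted p = 0.717) or with scores of 7 or more (0.097). The 38 other baits within 500 kb had 105 and 150 calls in Md and 117 and 139 in PA2, against 184 to 216 in WT.

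Krt82 (chr15:101550034-101551594), a hair keratin gene, had 9 and 8 calls in Md and 21 and 26 in PA2 of the deletion. WT had 24 and 23 in Md and 23 and 18 in PA2, so the Md libraries of the deletion were the low ones. The difference was 1.46 (SE 0.24, adjusted p = 0.0092 in limma). It did not pass with precision weights (adjusted p = 0.113), with scores of 7 or more (0.721), in the 8 Md and PA2 libraries of WT and the deletion alone (0.206) or without PA2 replicate 2 (0.0533).

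Besides Hoxb2, 2 baits had fewer calls in PA2. Eya4 (chr10:23349382-23350733), a transcriptional cofactor with a role in the ear, had 35 and 27 calls in Md and 9 and 7 in PA2 of the deletion. WT had 10 and 16 in Md and 6 and 7 in PA2, the same order with a lower Md, and Ezh2cKO 23 and 23 and 19 and 16. The difference was −1.84 (SE 0.29, adjusted p = 0.0078 in limma) in the deletion and −0.90 (SE 0.29, adjusted p = 0.529) in WT. In the deletion it did not pass with precision weights (adjusted p = 0.0863), with scores of 7 or more (0.0961), in the 8 libraries alone (0.218), without Md replicate 1 (0.117) or without PA2 replicate 2 (0.0555). The other bait has no gene name (chr14:46378200-46380389) and is separated by 1 further unnamed bait from that of Bmp4, a signal for facial outgrowth. It had 26 and 20 calls in Md and 7 and 9 in PA2 of the deletion, against 16 and 18 and 13 and 18 in WT (−1.42, SE 0.23, adjusted p = 0.0092 in limma). It did not pass with precision weights (0.189), with scores of 7 or more (0.887), in the 8 libraries alone (0.504) or without Md replicate 1 (0.139), all adjusted p. The bait between them had 12 and 13 calls in Md and 6 and 4 in PA2 (−1.22, adjusted p = 0.466), and the Bmp4 bait 21 and 11 in Md and 11 and 9 in PA2 (−0.54, adjusted p = 0.713), neither of which passed.

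**Figure D3:**
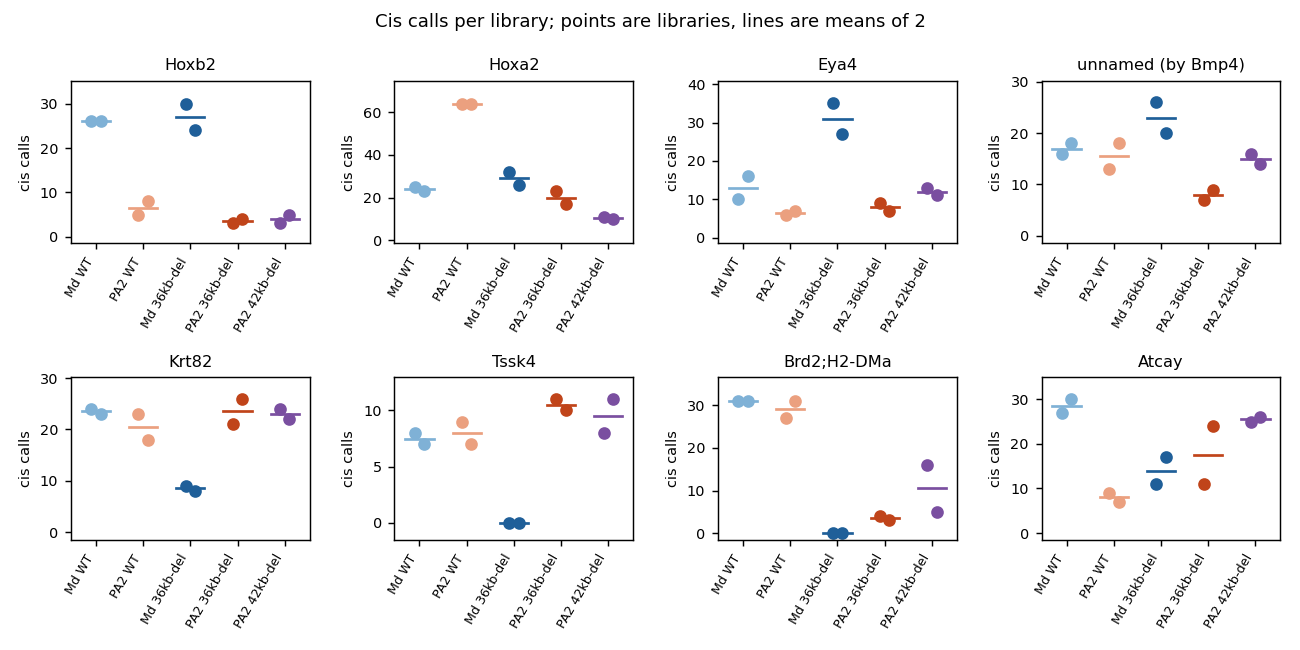
Cis calls of 8 baits in single libraries; points are libraries, lines are means of 2, and each panel has its own scale from about 0. Hoxb2 is low in PA2 of each genotype shown, Krt82 and Tssk4 are low in Md of the 36 kb deletion alone, and Brd2;H2-DMa is low in both tissues of that deletion.

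Below the threshold, the named baits with the next smallest p in each direction are given as values. Rfc2, a DNA replication clamp loader subunit, had 5 and 4 calls in Md and 15 and 18 in PA2 (1.81, adjusted p = 0.0768 in limma). Znrf3, a ubiquitin ligase that limits Wnt receptors, had 2 and 5 in Md and 11 and 15 in PA2 (1.89, adjusted p = 0.0849). Lower in PA2 were Ndufab1, the mitochondrial acyl carrier protein, with 11 and 7 in Md and 3 and 1 in PA2, Cdk5rap3 with 4 and 6 and 0 and 2, and Amhr2, the receptor of anti-Müllerian hormone, with 32 and 47 and 10 and 23 (adjusted p = 0.145 each). All 5 were picked by their p in this same comparison, so their lack of overlap between the tissues is no further result. None passed.

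In WT, 2 of the same 10344 baits passed (0.0193%), both lower in PA2: Hoxb2, above, and Atcay, which encodes a neuronal protein. Atcay had 27 and 30 calls in WT Md and 9 and 7 in WT PA2 (−1.76, SE 0.26, adjusted p = 0.012 in limma), with 670 baits (6.48%) at an unadjusted p below 0.05 in WT. Its call was lost without Md replicate 1 (adjusted p = 0.0704), Md replicate 2 (0.083) or PA2 replicate 2 (0.0988). In the deletion it had 11 and 17 in Md and 11 and 24 in PA2, which overlapped (0.29, SE 0.26, adjusted p = 0.87). Of the 2 baits called in WT, 1, Hoxb2, also passed in the deletion with the same sign. The test of the change between genotypes passed for 2 baits (0.0193%), Tssk4 at 4.41 (SE 0.58, adjusted p = 0.00177) and Brd2;H2-DMa at 3.12 (SE 0.49, adjusted p = 0.0135), and 551 (5.33%) had an unadjusted p below 0.05. With precision weights 1 bait passed that test (0.00967%). It did not pass for Atcay (2.05, SE 0.37, adjusted p = 0.0584). The WT count was 1 without Md replicate 1 and 5 without Md replicate 2, all higher in PA2 and sharing 0 baits with the 2 called in WT. The count for the change between genotypes was 1 without Md replicate 1 of the deletion, where Brd2;H2-DMa had an adjusted p of 0.0743, 4 without Md replicate 2, 10 without PA2 replicate 1, and 0 in the 8 libraries alone.

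**Figure D4:**
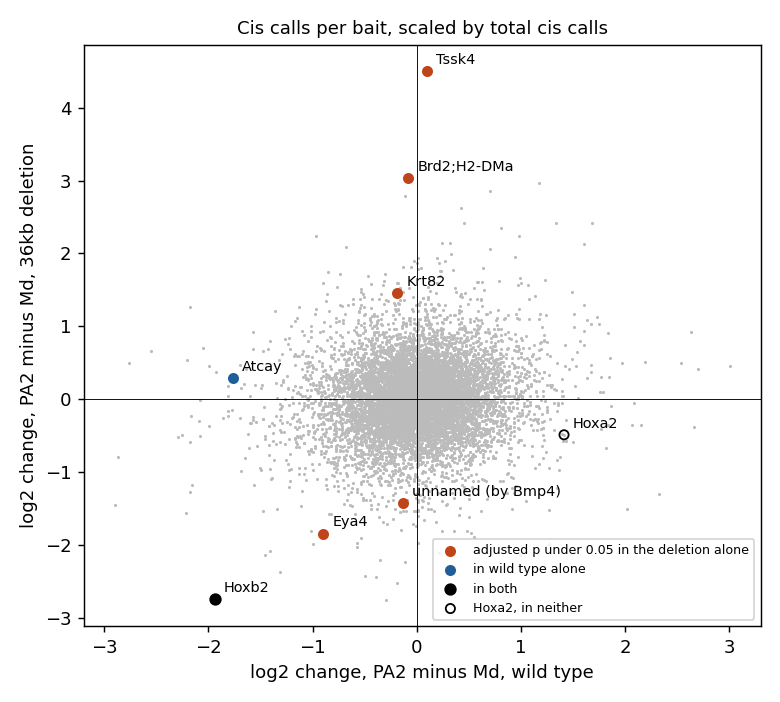
PA2 minus Md difference in cis calls per bait on the log2 scale, WT on the x axis and the 36 kb deletion on the y axis, 1 point for each of 10344 baits. Hoxb2 lies low on both axes, Tssk4, Brd2;H2-DMa and Krt82 are high on the y axis near 0 on the x axis, and Hoxa2 is at 1.41 on x and −0.49 on y.

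The gene lists held few of these baits. In the deletion 1 of 41 Hox baits passed, lower in PA2, and 1 of 23 second arch baits, in both cases Hoxb2. Of 25 mandibular, 138 patterning, 17 early crest and 17 skeletal baits none passed (medians 0.01, −0.08, −0.10 and −0.10). An unadjusted p below 0.05 was found in 6 of the 25 mandibular, 5 of the 23 second arch (21.7%) and 18 of the 138 patterning baits (13.0%), against 7.91% of all. Among members of these lists, given as values, Sp7, the osteoblast factor, had a difference of 1.41 (adjusted p = 0.145), Dlx1, a homeobox gene of the jaw primordia, 1.03 and Meis2, a cofactor of Hox proteins, 1.05. Fgf10, a growth factor of epithelial budding, had −1.46 (adjusted p = 0.244), Runx2, the bone master regulator, −1.38 (adjusted p = 0.31), Tfap2a, a crest factor, −0.63 and Alx4, a homeobox factor of facial mesenchyme, −1.52. Besides Hoxb2, the mandibular and second arch baits below 0.05 unadjusted in limma went both ways. Lower in PA2 were Alx4, above, Mab21l2 at −1.06, Nr2f1 at −0.75, Msx2 at −0.71, Eya1 at −0.67, Dlx6 at −0.43 and Hand2 at −0.35. Higher in PA2 were Dlx1 and Meis2, above, and Lhx6 at 0.87. None of these passed. Markers of other cell types (6 epithelial, 5 endothelial, 5 muscle, 3 neuronal and 7 blood baits), 16 housekeeping, 10 Polycomb and 6 baits of genes beside the Hoxa cluster had no call past the threshold. Below an unadjusted p of 0.05 in limma lay 1 endothelial (20.0%), 1 epithelial (16.67%), 1 Polycomb (10.0%) and 1 housekeeping bait (6.25%), and 0 of the other lists. Lists this short cannot be set apart from the 7.91% of all baits, and the shares of the lists were not tested.

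Single called pairs were then sorted by tissue. In the deletion, 91398 pairs were called in both libraries of at least 1 tissue, and 40815 (44.7%) in all 4 libraries. Called in both PA2 libraries and in neither Md library were 7894 (8.64%), and the reverse held for 10350 (11.3%). In WT the numbers were 15355 (12.9%) and 13971 (11.7%) of 118913, with 54161 (45.5%) in all 4. Few of these pairs recurred: 351 pairs were of PA2 alone in both genotypes (4.45% of the deletion's list and 2.29% of the WT list), and 560 of Md alone (5.41% and 4.01%). For comparison, 316 pairs of PA2 alone in the deletion (4.00%) were of Md alone in WT, and 398 of Md alone (3.85%) were of PA2 alone in WT.

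The Hox clusters were sorted in the same way. Of 195 pairs of Hoxa baits, 17 (8.72%) were of PA2 alone and 33 (16.9%) of Md alone in the deletion. Of 250 Hoxb pairs the numbers were 24 (9.60%) and 38 (15.2%), and 16 of the 38 were also of Md alone in WT. Of 528 Hoxc pairs 38 (7.20%) were of PA2 alone and 12 (2.27%) of Md alone, and of 205 Hoxd pairs 5 and 13. Against 8.64% and 11.3% of all pairs, the share of Md alone was higher at Hoxa and Hoxb and lower at Hoxc and Hoxd, a description with no test. In WT, 83 of 277 Hoxa pairs were of PA2 alone and 24 of Md alone. By single baits, Hoxb2 had 17 cis pairs of Md alone in the deletion, 10 of them also of Md alone in WT, and Hoxa2 had 14, 5 of them also in WT. Eya4 had 12. The largest numbers belonged to Hjurp, the chaperone of the centromeric histone, with 30 of Md alone and 17 of PA2 alone, followed for Md by Zik1 with 24 and Tafa2 with 20. For PA2 Tafa2 had 16, and Gas1, a Hedgehog co-receptor of the face, Micos13 and an unnamed bait on chromosome 5 had 13 each. Hjurp and Tafa2 thus had many pairs in both lists. So did Zik1, with 11 of PA2 alone, Chordc1, with 14 of Md alone and 10 of PA2 alone, and the bait of Cpsf3 and Itgb1bp1, with 14 and 8.

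The strongest pairs of each tissue were ranked by the lower of their 2 scores, which are the authors' own values and were used to rank within the deletion. For PA2 the first joined H2ac8 to H1f5 and H3c11, histone genes 1786 kb apart, with scores of 45.9 and 81.8. This pair was called in every other Md and PA2 library given here and was missing from the Md libraries of the deletion. The next 2 joined Hoxa2 to neighbouring fragments at the edge of the gap (chr6:51170426-51171571, 993.9 kb away, scores 24.9 and 31.1, and chr6:51171572-51173833, 992.2 kb away, scores 24.5 and 29.5). Both were called in every WT and Ezh2cKO library of Md and PA2 and in neither library of the 42 kb deletion, where no bait called these fragments. They were followed by a pair of Ugt1a1, a bilirubin-conjugating enzyme, over 84320 kb, and 1 of Cpsf3 and Itgb1bp1 over 3879 kb. For Md, 3 of the first 5 were pairs of Hjurp over 84840, 85010 and 85180 kb, and another joined the histone gene H1f3 to a fragment 1814 kb away (scores 16.2 and 21.3). The fifth, of Eif3j2 and Gm3650, spanned 34530 kb.

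Whether pairs of 1 tissue in the deletion were also more often called in that tissue in libraries the sorting did not use was tested in WT and Ezh2cKO. Of the pairs of PA2 alone, 38.1% and 39.0% were called in WT Md, 39.2% and 39.9% in WT PA2, 36.6% and 40.4% in Ezh2cKO Md, and 41.5% and 41.1% in Ezh2cKO PA2. PA2 exceeded Md by 1.92 percentage points on average (exact permutation test within genotypes, two-sided, p = 0.0556, the smallest this design allows). With pairs sorted without PA2 replicate 1 the difference was 0.67 points (exact permutation p = 0.222), without PA2 replicate 2 0.799 (p = 0.111, exact), and with scores of at least 7 it was 1.21 (p = 0.611, exact). Of the pairs of Md alone, 38.2% and 39.8% were called in WT Md, 35.46% and 35.96% in WT PA2, 36.8% and 39.8% in Ezh2cKO Md, and 40.1% and 40.4% in Ezh2cKO PA2. The mean difference was −0.657 points (exact permutation p = 0.722), made of −3.25 in WT and 1.94 in Ezh2cKO, so that the order followed the tissue in WT and was the opposite in Ezh2cKO. In PA2 of the 42 kb deletion, 35.6% and 36.2% of the pairs of PA2 alone and 31.5% and 33.0% of those of Md alone were called. The libraries also differed in how much they listed, with 165917 and 183923 pairs in Ezh2cKO Md against 179594 and 182347 in PA2, and the part of this in the shares was not tested.

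**Figure D5:**
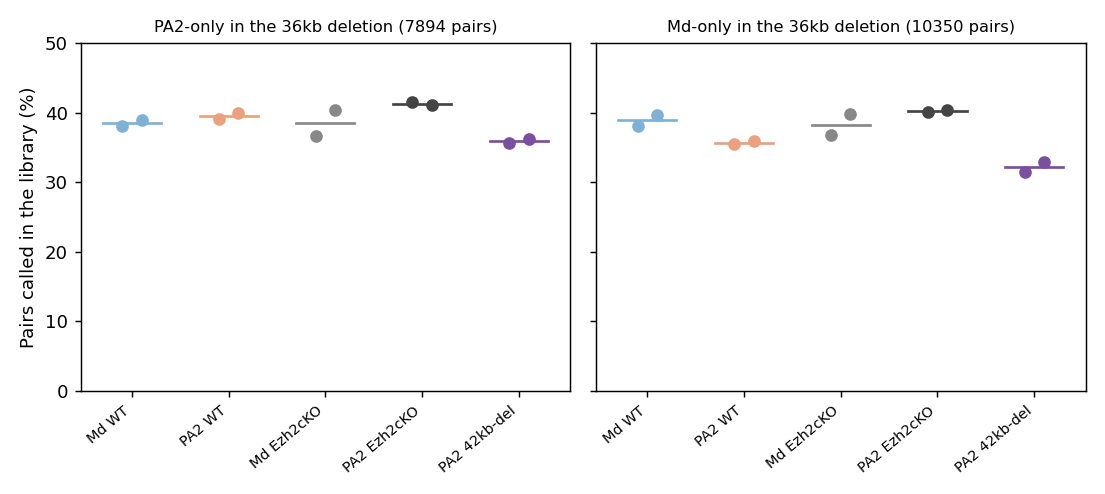
Percent of the pairs called in 1 tissue of the 36 kb deletion that were also called in each library of the other genotypes; points are libraries and lines are means of 2. For the 7894 pairs of PA2 alone the WT and Ezh2cKO values range from 36.6% to 41.5%, and for the 10350 pairs of Md alone the WT PA2 values, 35.46% and 35.96%, lie below those of WT Md.

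On average, replicates of a tissue shared as many pairs as libraries of the 2 tissues did in the deletion. The share of cis calls in common (Jaccard index) was 0.303 between the Md replicates and 0.277 between the PA2 replicates, a mean of 0.290, and it ranged from 0.281 to 0.299 over the 4 pairs of different tissues, also with a mean of 0.290. The Md replicates lay above these 4 values and the PA2 replicates below them. In WT the replicates shared 0.330 and 0.354, and libraries of different tissues 0.304 to 0.310.

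The libraries of the 2 tissues were close in their general measures, and with 2 against 2 none of the tests of them could pass. The median distance of cis calls was 434.7 and 427.4 kb in Md and 415.1 and 419.2 kb in PA2, and the median score 6.46 and 6.44 against 6.41 and 6.42, which were the measures without overlap (exact permutation p = 0.333, the smallest possible). The percent of trans calls, of promoter to promoter calls and of cis calls at 1 Mb or more, total and cis calls, and baits with a call overlapped between the tissues. Among promoter pairs in trans or at 100 kb or more, those with a Hox or patterning gene at both ends made up 0.317% and 0.319% in Md and 0.327% and 0.338% in PA2 of the deletion (exact permutation p = 0.333), against 0.499% to 0.585% in WT. The part of distance and score in the differences above was not tested.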

How the data were processed

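The authors deposited 1 list of called pairs per library, each with a score of at least 5; per the file names the scores come from CHiCAGO. The build is GRCm38 (mm10), per the submitters' processing notes. No aligner or caller setting is given in the sources used here. Of 22203 baits, 16571 were named from RefSeq: by a start site inside them or within 1 kb, or, for the 4395 genes without a listed start site, by either annotated gene end. Cis calls per bait were counted, and log2 of (calls + 0.5) per 10000 total cis calls was fitted in R 4.3.3 with limma 3.58.1 (12 group means over 24 libraries, trend, two-sided, Benjamini-Hochberg over 10344 baits averaging 5 calls or more). A shift shared by all baits cannot appear on this relative scale.

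The named-gene rule took all baits past an adjusted p of 0.05 in the 3 contrasts, the baits with the smallest p up to 5 each way, all Hox baits (some of them not reported here), list members that pass, and the 5 pairs of each tissue with the highest lower score. Members, lists, windows and tests were chosen with earlier results of these data known, and the genes named from lists as values and the baits around Bmp4 were named after their values were seen. Each library has its own batch label, so batch could not be tested. For replicate 2 of PA2 with the 36 kb deletion, the genotype field carries the title of a different sample, so the group came from the title. Replicate numbers were not used as pairs, since no label says that they mark a shared litter or day; the correlation of replicate differences between tissues was 0.158 in the deletion and 0.016 in WT, and 2 pairs cannot settle the question. Alternatives were other scalings, added counts, filters, scores, distances, libraries, precision weights and leaving out each library. The fit was tested on simulated data.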

Additional observations from a re-analysis of the deposited data

Results flagged for a closer look

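The difference between PA2 and Md was itself different in the 36 kb deletion and in WT for 2 baits, by the limma test of that change over 10344 baits. For Tssk4 the change was 4.41 on the log2 scale (SE 0.58, adjusted p = 0.00177), from 0 and 0 calls in Md and 11 and 10 in PA2 of the deletion against 8 and 7 and 9 and 7 in WT. For Brd2;H2-DMa it was 3.12 (SE 0.49, adjusted p = 0.0135), from 0 and 0 in Md and 4 and 3 in PA2 of the deletion against 31 and 31 and 27 and 31 in WT. With precision weights Tssk4 passed (adjusted p = 0.00632) and Brd2;H2-DMa did not (adjusted p = 0.964). In the 8 Md and PA2 libraries of WT and the deletion alone neither passed (adjusted p = 0.357 each). Both fitted sizes rest on a group listed at 0 and depend on the added count.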

How the results depend on the processing

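Read depth was unknown and each group had 2 libraries, which limits what any count here can show. The 6 baits called between the tissues in the deletion became 21 with a replicate block (14 higher and 7 lower in PA2, with all 6 among them), 3 in the 8 Md and PA2 libraries of WT and the deletion, 1 with precision weights, 1 with scores of at least 7 (a different bait, and 0 of the 6) and 10 to 51 without 1 library, and stayed at 5 to 7 under 7 other settings. With the block the WT count was 2, the count for the change between genotypes 3 and the count of WT baits that passed in the deletion 1. The 2 WT baits became 0 with scores of at least 7 (283 at an unadjusted p below 0.05 in limma) and 1 to 5 without 1 library. The 2 baits whose difference changed between genotypes became 1 with an added count of 1, a mean of at least 10 calls, a mean of at least 5 calls in the deletion libraries or precision weights, 0 with scores of at least 7 (212 unadjusted in limma) or in the 8 libraries (484 unadjusted), and 1 to 10 without 1 library. The count of WT baits that passed in the deletion was 0 with precision weights and 1 to 2 without 1 library, and had no value with scores of at least 7.

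Differences between tissues that were small changed sign. Without 1 library the Hoxa cluster difference ranged from −3.26 to 0.354 per 10000, that of Hoxb was 0.739 with scores of at least 7, and Hoxa2 calls from 100 kb to 1 Mb on the lower side differed by −0.0661 per 10000 with scores of at least 7 and by −0.143 to 0.285 without 1 library. On the higher side the difference changed in size and kept its sign, at −0.0853 with scores of at least 7, −0.129 per 10000 total calls and −0.137 to −0.131 without 1 library. Without 1 library, total calls differed by −9994 to 1735, cis calls by −10290 to 1384, promoter to promoter calls by −0.295 to 0.997 percentage points, cis calls at 1 Mb or more by −2.13 to 0.463 points and baits with a call by −104 to 41. The share of promoter pairs joining developmental genes differed by −0.0409 points with scores of at least 7. Pairs of PA2 alone numbered 844 and of Md alone 1354 with scores of at least 7, 1407 and 1940 without any call within 20 kb in the other tissue, and 14647 to 70934 and 19517 to 69095 without 1 library. Library measures have no scaling to change. The cause of these changes was not tested, apart from the smaller number of libraries where one was left out. Of 174 values of single baits under an alternative, 141 kept direction and side of the threshold, 32 lost their call and 1 gained one.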
